A study of Mus musculus with 6 samples.

Results

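The Hox cluster genes were taken as all genes of the count table whose symbol is Hox followed by a cluster letter from a to d and a number. This gave 39 of the 53465 genes in the table: 11 in Hoxa, 10 in Hoxb, 9 in Hoxc and 9 in Hoxd. The values below are of 38 of them. RNA sequencing was done on 6 primary liver cancer cell lines from C57BL/6 mice, each grown from a tumour of a different mouse. The 3 Myc_Utx lines (2A, 2B and 2D) came from Kdm6a-deficient tumours made with Myc and an sgRNA to Kdm6a, the gene for the histone demethylase UTX, and the 3 Myc_p53 lines (1, 2 and 3) from p53 knockout tumours made with Myc and an sgRNA to Trp53. In both groups c-myc was carried by a Sleeping Beauty transposon and delivered to the liver by tail vein injection together with a plasmid for Cas9 and the sgRNA, so every line carried Myc and the comparison lines lacked p53 rather than being wild type. The lines had been kept in culture before RNA was taken, so each stands for 1 tumour after growth in a dish, and freedom from other cell types was judged by eye.

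Hox genes encode homeodomain transcription factors that give cells their position along the head to tail axis of the embryo. Genes at the low-numbered end of a cluster are switched on early and towards the head, and those at the high-numbered end late and towards the tail. Outside their domains the clusters are kept silent by Polycomb complexes, which place the H3K27 methylation that UTX removes, while KMT2 complexes maintain the active state. The comparison therefore asks whether the Hox clusters of Kdm6a-deficient liver tumour lines differ in RNA from those of p53-deficient ones.

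Total counts ranged from 4656103 to 6937497 per line. Trp53 counts were 1475, 1578 and 1239 in the Myc_Utx lines and 205, 186 and 251 in the Myc_p53 lines, which differ as labelled. Kdm6a counts were 199, 244 and 220 in the Myc_Utx lines and 440, 348 and 298 in the Myc_p53 lines, and after normalization the groups overlapped, so the RNA level alone does not separate them. Kmt2c, which encodes MLL3, was also read in every line, with 349, 411 and 389 counts in Myc_Utx and 939, 625 and 851 in Myc_p53. Its log2 fold change was -0.73 (adjusted p = 0.0289 by edgeR's quasi-likelihood test). That of Kdm6a was -0.39 (adjusted p = 0.243 by the same test). Which gene was edited in the Myc_Utx lines cannot be read from these RNA levels, so the genotype is taken from the labels. The hepatocyte marker Alb had between 4 and 26 counts in any line, whereas the duct and progenitor marker Spp1 had 382 to 7275, so the lines showed little of the defining albumin RNA of hepatocytes.

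Promoter sequences of 22 of the 38 Hox genes described were matched in RefSeq (GRCm38.p6), as 24 windows from 250 bases before to 50 after a transcript start. Hox promoters held a median of 14.5 CG dinucleotides per window, against 7.0 over all 32851 promoters. They are shown because the silence described below covered promoters of very different base composition. The 15 genes without a single count had windows with 4 to 45 CG, and the 7 genes with counts had 9 to 37, so the ranges overlapped. The Hoxa13 window (chr6:52260831-52261130, minus strand) held the most CG and had no counts, and the window of Hoxa7 (chr6:52218524-52218823, minus strand), which had 5 counts in all, held 9. In both, read 5′ to 3′, capitals mark CG.
Hoxa13: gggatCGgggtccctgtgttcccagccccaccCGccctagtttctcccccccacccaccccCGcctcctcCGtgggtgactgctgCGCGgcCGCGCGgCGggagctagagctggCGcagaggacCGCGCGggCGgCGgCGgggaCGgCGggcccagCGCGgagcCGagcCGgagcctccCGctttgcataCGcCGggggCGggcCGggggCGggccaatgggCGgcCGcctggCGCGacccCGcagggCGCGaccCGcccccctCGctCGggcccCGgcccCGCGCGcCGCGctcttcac
Hoxa7: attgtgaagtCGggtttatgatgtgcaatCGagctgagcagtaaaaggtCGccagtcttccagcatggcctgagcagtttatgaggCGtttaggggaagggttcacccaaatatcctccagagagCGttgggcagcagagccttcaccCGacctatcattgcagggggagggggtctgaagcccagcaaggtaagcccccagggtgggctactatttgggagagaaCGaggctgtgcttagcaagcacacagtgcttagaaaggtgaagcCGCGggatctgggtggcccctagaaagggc

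A match to TGATNNAT, the letters bound by Hox proteins together with Pbx partners, was found on either strand in 4 of the 24 Hox windows (16.7%), against 8.85% of all promoters. Those windows belonged to Hoxd11, Hoxa2, Hoxb8 and Hoxb1. Hoxb1, which is known for an autoregulatory element near its promoter, had no counts in any line although its window (chr11:96365508-96365807, plus strand) holds the match shown in capitals.
Hoxb1: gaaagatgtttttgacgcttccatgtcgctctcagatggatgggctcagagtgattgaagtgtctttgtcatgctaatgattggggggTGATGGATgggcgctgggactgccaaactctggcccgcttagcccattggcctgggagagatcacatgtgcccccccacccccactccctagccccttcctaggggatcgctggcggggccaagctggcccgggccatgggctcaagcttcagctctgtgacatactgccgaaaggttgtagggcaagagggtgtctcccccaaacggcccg

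The clusters also hold microRNA genes. The mature forms of miR-10 and miR-196 are printed, grouped by seed (bases 2 to 8, in capitals, 5′ to 3′), because their genes lie within the clusters.
miR-10a-5p: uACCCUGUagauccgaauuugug
miR-10b-5p: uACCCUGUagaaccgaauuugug
miR-196a-5p: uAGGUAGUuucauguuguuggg
miR-196b-5p: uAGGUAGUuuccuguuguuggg
The table rows of Mir10a, Mir10b, Mir196a-1, Mir196a-2 and Mir196b stood at 0 in every line. These rows count reads over the short hairpin gene in a library of long RNA, so they do not measure the mature microRNAs.

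The Hox genes described were almost silent in all 6 lines. Of the 38 Hox genes, 25 had no count in any line, and 13 had at least 1. Without Myc_p53_3, 8 had reads. Genes at 0 in every line made up 27.2% of the 21865 protein-coding genes and 54.7% of all genes in the table. Of these 13, Hoxc6 was above 3 counts in a line, with 4 in Myc_p53_3, and the others had 1 to 3 at most. By comparison, 61.5% of protein-coding genes passed 3 counts in some line. The 6 libraries held 33657099 counts together. For a gene at 0 in all 6 lines, 3 counts of that total allow a level of up to 0.0891 CPM (counts per 1000000 counts of the library), or 0.0160 to 0.102 CPM per kb of transcript depending on the length of the gene. The limit covers counting error only, and below it a Hox transcript was not detectable at this depth. The median protein-coding gene with reads stood at 4.0 CPM per kb.

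**Figure D1:**
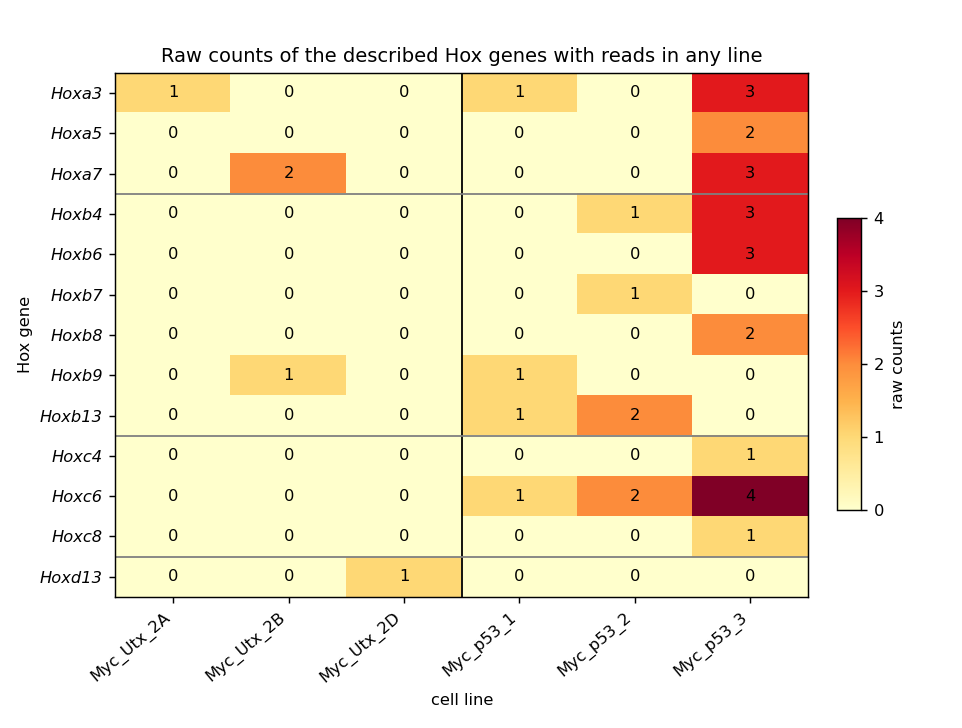
Raw counts of the 13 described Hox genes with at least 1 count (rows, grey lines between clusters) in each cell line (columns, Myc_Utx left of the black line and Myc_p53 right of it), with colour from 0 to 4 counts. Most cells hold 0, and the highest is the 4 of Hoxc6 in Myc_p53_3.

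By position, of the 15 genes of paralogue groups 4 to 8, 6 were at 0 in every line, as were 13 of the 16 genes of groups 9 to 13. Groups 4 to 8 held 26 counts over the 6 lines and groups 9 to 13 held 6. Myc_p53_3 supplied 19 of the 26 and none of the 6, and without it the sums were 7 and 6, with reads in 4 of 15 and 3 of 16 genes. Towards the anterior end, Hoxb1, Hoxb2, Hoxb3, Hoxd1 and Hoxd3 were among those at 0, while Hoxa3 had 5 counts over 3 lines. Within groups 9 to 13, the counts were 3 in Hoxb13, 2 in Hoxb9 and 1 in Hoxd13, while Hoxa13, Hoxc12, Hoxc13 and Hoxd12 were at 0. These counts are too few for a test of position, and the order is given as a description.

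Most rows of noncoding RNAs of the clusters also stood at 0. Hottip, Hotair, Haglr and 11 others were at 0 in every line (14 of 17 in the list), against 54.7% of all genes in the table. The 11 others included the microRNA genes Mir10a, Mir10b, Mir196a-1, Mir196a-2, Mir196b and Mir615. Rows of microRNA genes do not measure the mature microRNAs in a library of long RNA. Hoxaas2 and Hoxaas3 had 2 and 1 counts in all. Hotairm1, a noncoding RNA of Hoxa, had 4, 11 and 2 counts in the Myc_Utx lines and 0, 2 and 3 in the Myc_p53 lines. Myc_Utx_2B was the highest. The raw counts of the groups overlapped, while after TMM normalization the lowest Myc_Utx line (0.443 CPM) lay just above the highest Myc_p53 line (0.426 CPM). It fell below the filter on low counts and was not tested, it was chosen for mention after its values were seen, and 42.0% of the genes tested did not overlap either. The strand setting of the counting is not given in the sources used here, so reads of an antisense RNA and of a gene on the other strand may not be separable.

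Of the 13 Hox genes with counts, 9 had them in Myc_p53 lines only, 1 in a Myc_Utx line only and 3 in both groups. Among the 12 that never passed 3 counts, 8 (66.7%) had reads in Myc_p53 lines only and 1 (8.33%) in a Myc_Utx line only. The same shares over the 2476 protein-coding genes that had reads but never passed 3 counts were 51.3% and 15.5%, so reads in Myc_p53 lines only were the commonest case there too. Myc_p53_3 was the sole line with reads for 5 of the 12 Hox genes (41.7%; Hoxa5, Hoxb6, Hoxb8, Hoxc4 and Hoxc8) and for 15.3% of those protein-coding genes. With 12 genes these shares are a description. Over all genes, 34.0% to 36.8% had reads in a Myc_p53 line and 29.9% to 31.7% in a Myc_Utx line. With every library thinned to the smallest depth, 0.914, 1.83 and 1.0 of the 38 Hox genes would be expected with reads in the Myc_Utx lines and 3.04, 3.70 and 7.97 in the Myc_p53 lines, so the Myc_p53 lines still had more. Over all genes the same thinning gave 16368.8, 16546.3 and 16002.0 in the Myc_Utx lines. It gave 18162.0, 17818.5 and 18513.5 in the Myc_p53 lines, so these had more there too.

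**Figure D2:**
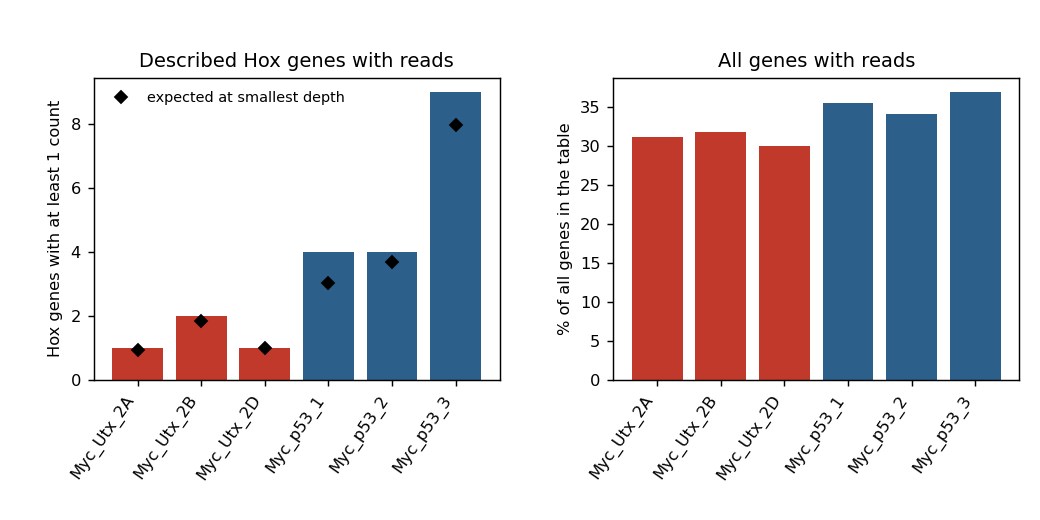
For each line, the number of the 38 described Hox genes with at least 1 count (left, bars; diamonds, the number expected at the smallest library) and the percent of all genes in the table with reads (right), with Myc_Utx in red and Myc_p53 in blue. Myc_p53_3 has reads in 9 Hox genes and Myc_Utx_2A and 2D in 1 each, and the Myc_p53 lines also detect more genes overall.

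Macrophage markers were also higher in the Myc_p53 lines. The summed level of 15 macrophage markers was 2.75 to 6.39 CPM in the Myc_Utx lines and 45.1 to 122 CPM in the Myc_p53 lines. Of the 15, 13 had reads, and Clec4f and Vsig4, which define Kupffer cells, were at 0. Of the 7 tested, 6 were lower in Myc_Utx, against 7.69% lower over all genes tested. The tested marker that was not called, Cd68, had 14, 21 and 24 counts in Myc_Utx and 65, 18 and 48 in Myc_p53. Its log2 fold change was -0.76 (edgeR adjusted p = 0.300). The macrophage receptor gene Csf1r had 0, 1 and 0 counts in Myc_Utx and 259, 39 and 243 in Myc_p53. The 13 fibroblast markers, of which Lrat was at 0, summed to 1943 to 2728 CPM in Myc_Utx and 50.8 to 3506 CPM in Myc_p53, so the groups overlapped. Col3a1 made up most of the sum in Myc_Utx, with 8677, 12288 and 11488 counts, and had 65, 14680 and 518 in Myc_p53. Pdgfrb had 874, 1454 and 517 counts in Myc_Utx, while Dcn, Lum, Thy1 and Des had at most 4 in any Myc_Utx line. The 8 endothelial markers summed to at most 2.19 CPM in any line. The part of these cells in the Hox counts was not tested, and in bulk RNA fewer cells of a type and less RNA per cell cannot be told apart.

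Among the Hoxa genes described, Hoxa3, Hoxa5 and Hoxa7 had reads. Hoxa3, needed for the thymus and parathyroid, had 1, 0 and 0 counts in Myc_Utx and 1, 0 and 3 in Myc_p53. Hoxa7 had 0, 2 and 0 against 0, 0 and 3, and Hoxa5, a regulator of lung development, had 2 counts in Myc_p53_3. For Hoxa3 and Hoxa7 the groups overlapped. Hoxa9 and Hoxa10, which are active in blood progenitors and leukaemia, were at 0 in every line.

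In Hoxb, reads fell on 6 of 10 genes. The line sums were 0, 1 and 0 in Myc_Utx and 2, 4 and 8 in Myc_p53, which did not overlap. Hoxb4, known for its effect on blood stem cells, had 1 count in Myc_p53_2 and 3 in Myc_p53_3, and Hoxb6 and Hoxb8 had 3 and 2 in Myc_p53_3 alone. Hoxb13, a prostate and tail bud gene, was read in Myc_p53_1 (1 count) and Myc_p53_2 (2 counts) and not in Myc_p53_3. Hoxb7 had 1 count in Myc_p53_2, and Hoxb9 had 1 in Myc_Utx_2B and 1 in Myc_p53_1. The summed level was 0.0621 ± 0.108 CPM (SD, n = 3) in Myc_Utx and 0.729 ± 0.410 CPM (SD, n = 3) in Myc_p53. On the log2(CPM + 0.5) scale the difference was -1.09, with p = 0.1 by the two-sided exact permutation test, the smallest that 3 lines against 3 allow, so no call was possible. Pooled over lines, Hoxb had 1 count in Myc_Utx, under the floor of 3 counts, against 14 in Myc_p53, so only an upper limit is given. The exact 95% interval of the ratio of pooled CPM reached up to 0.568. This interval covers counting error only and not the spread between lines. Myc_p53_3 supplied 8 of the 14 counts, and without it Hoxb had 6 counts in Myc_p53. For comparison, 42.0% of the 11510 genes tested did not overlap between the groups.

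Hoxc had no count in any Myc_Utx line and 1, 2 and 6 in the Myc_p53 lines. Most belonged to Hoxc6, a gene of the thoracic region, with 1, 2 and 4 counts, and Hoxc4 and Hoxc8 had 1 each in Myc_p53_3. The exact 95% interval of the ratio of pooled CPM, which covers counting error only, reached up to 0.613 for the cluster and 0.840 for Hoxc6. Without Myc_p53_3, the cluster and Hoxc6 each had 3 counts in Myc_p53, which is the floor, so no ratio is given. The summed level in Myc_p53 was 0.459 ± 0.356 CPM (SD, n = 3), and the difference on the log2(CPM + 0.5) scale was -0.88, with p = 0.1 by the two-sided exact permutation test, again the smallest it can give. Hoxc9 to Hoxc13, at the posterior end, were at 0. In Hoxd, a single count of Hoxd13, the digit-patterning gene, was found in Myc_Utx_2D, and the other 8 genes were at 0, so both groups were at or under the floor and no ratio is given.

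The model across all genes could not test these Hox genes. After the filter on low counts, edgeR's quasi-likelihood test ran on 11510 genes, 1690 of which (14.7%) passed an adjusted p of 0.05, and none of the 38 Hox genes was among those tested. Fitted without a filter, 13 Hox genes were tested and 0 passed an adjusted p of 0.05, against 6.61% of the 24221 genes fitted. At an unadjusted p under 0.05 there was 1 of the 13, against 21.7% of all genes. This was Hoxc6, for which the edgeR adjusted p was 0.184, and it was chosen for mention after its values were seen. DESeq2 called 0 of the 13, against 20.1% of the 14069 genes with an adjusted p. It had 0 at an unadjusted p under 0.05, and it gave none of the 13 an adjusted p.

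Several genes around the clusters were well expressed. Within 250 kb on either side lay 20 protein-coding genes, 13 of which reached 50 counts in a line and 3 of which were at 0 in every line. Those 3 included Evx1 and Evx2, homeobox genes that adjoin the posterior ends of Hoxa and Hoxd. Beside Hoxb, Ttll6 and Skap1 had at most 4 and 2 counts in a line. Between the Hox genes, 46 other annotated genes were counted, of which 7 had reads and 3 passed 3 counts (Hotairm1, the small RNA annotation Gm27477 and the pseudogene Gm11539). On the Hoxd side, Lnpk and Mtx2, which flank the cluster, had 165 to 270 and 340 to 439 counts per line. Within 250 kb of Hoxc, Cbx5, which encodes the heterochromatin protein HP1 alpha, had 1641 to 4045. Smug1, which lies between Cbx5 and the cluster, had 115 to 229. A separate list of cluster neighbours also held genes further away than 250 kb. Of its 20 tested genes, 4 were higher and 2 lower in Myc_Utx, against 6.99% higher and 7.69% lower over all genes tested. The median log2 fold change of the list was 0.09, against -0.01 over all genes tested. The higher ones were Hnrnpa1, Hnrnpa3, Nfe2l2 and Hibadh, and the lower ones Atf2 and Calcoco1. Of these, Hnrnpa1 and Calcoco1 lay within 250 kb of a cluster and the others did not. Hnrnpa3, an RNA-binding protein gene beyond Hoxd, had a log2 fold change of 0.60 (SE 0.0969, edgeR adjusted p = 0.0188).

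**Figure D3:**
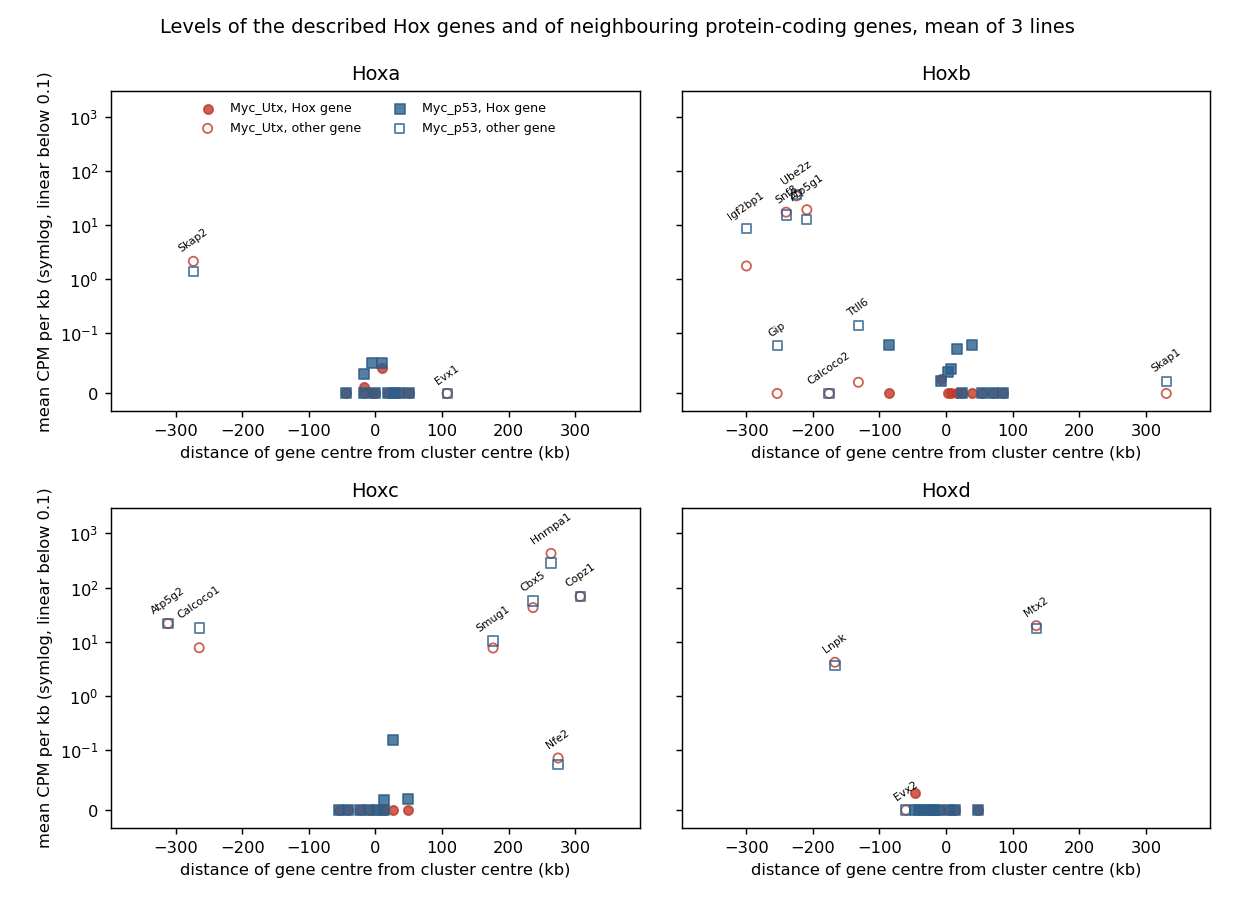
Mean level in CPM per kb (symmetric log axis, linear below 0.1; mean of 3 lines per group) against the distance of each gene's centre from the centre of its Hox cluster, for the described Hox genes (filled) and protein-coding genes within 250 kb (open). The Hox genes shown lie at or near 0 in both groups, with neighbours such as Lnpk, Mtx2 and Cbx5 well above.

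The partners and regulators of Hox genes were present. Of 9 genes for Pbx, Meis and Pknox cofactors and the Pbx-binding protein Pbxip1, 8 had more than 3 counts in every line. Pbx2 had 196, 230 and 203 counts in Myc_Utx and 330, 261 and 242 in Myc_p53, and after normalization the groups overlapped. Meis3 fell in Myc_Utx by 1.48 on the log2 scale (SE 0.354, edgeR adjusted p = 0.0418) and Pbxip1 fell by 2.49 (SE 0.613, edgeR adjusted p = 0.0446). They were the 2 of 8 tested partners that passed, against 14.7% of all genes tested. There was 1 without a filter, with at least 10 counts in every line, with a transcript length offset and with DESeq2. With 1 line left out, 0 or 1 partner was called lower. Among the upstream and related genes, the retinoic acid receptor genes Rara and Rarg and the ParaHox gene Cdx2 were read in every line. Of 5 tested, 0 passed an adjusted p of 0.05 in edgeR's quasi-likelihood test, with 0 at an unadjusted p under 0.05. All 5 had a positive log2 fold change, with a median of 0.90, against -0.01 over all genes tested. DESeq2 also called 0, with Aldh1a2 and Cyp26b1 under an unadjusted p of 0.05. Without Myc_p53_2, edgeR called 2 of them higher in Myc_Utx, Rarg and Gdf11. Cdx2, which activates Hox genes in the embryo, had 337, 68 and 90 counts in Myc_Utx and 22, 76 and 140 in Myc_p53, while Cdx1, Cdx4, Pdx1, Gsx1 and Gsx2 were at 0.

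Of 33 tested genes for KMT2, Polycomb and related proteins, 3 were higher and 5 lower in Myc_Utx (median log2 fold change -0.08), against 6.99% higher and 7.69% lower over all genes. The higher ones were Polycomb genes. Eed, a core subunit of the H3K27 methyltransferase PRC2, was at 79.1 ± 2.93 CPM (SD, n = 3) in Myc_Utx and 49.4 ± 3.37 CPM (SD, n = 3) in Myc_p53, a log2 fold change of 0.68 (SE 0.119, edgeR adjusted p = 0.0213). Bmi1 and Ring1, of PRC1, were higher by 0.62 and 0.85 on the log2 scale. Kmt2a, which maintains Hox expression in blood cells, was lower at 146.5 ± 18.4 CPM against 312.4 ± 17.8 CPM (SD, n = 3 each), a log2 fold change of -1.09 (SE 0.125, edgeR adjusted p = 0.0130). The others that fell were Kmt2c, the PRC2 gene Ezh1 and the PRC1 genes Cbx7 and Phc3. Of the 16 called genes in the lists of partners, neighbours and regulators, 0 passed without Myc_Utx_2A, 0 without Myc_Utx_2B and 0 without Myc_Utx_2D. Over all genes, calls fell from 1690 to 4, 81 and 71 in the same fits, while the log2 fold change of Kmt2a stayed between -1.18 and -1.01 with any 1 line left out. Without Myc_p53_3 there was 1, Kmt2a, without Myc_p53_1 there were 9, and without Myc_p53_2 there were 12.

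Other homeobox genes gave a contrast in level. Among 50 homeobox genes outside the clusters, chosen after the data were seen, 15 were at 0 in every line and 26 passed 3 counts in some line, against 25 and 1 of the 38 Hox genes. Of 4 liver homeobox genes, likewise chosen, none was at 0 in every line, but not all stood above the Hox genes. Prox1 had 2, 2 and 0 counts in Myc_Utx and 4, 2 and 1 in Myc_p53. Onecut1 had 1, 0 and 0 in Myc_Utx and 44, 1 and 17 in Myc_p53. Hhex, needed for liver bud formation, had 49, 34 and 33 counts in Myc_Utx and 79, 122 and 217 in Myc_p53 and fell in Myc_Utx by 1.49 on the log2 scale (SE 0.382, edgeR adjusted p = 0.0486).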

How the data were processed

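The authors deposited raw read counts per Ensembl gene, with no normalization, for 6 cell lines. Per the labels' processing notes, reads were trimmed with Trimmomatic 0.36, aligned with STAR 2.5.3a to GRCm38 (mm10) and counted with featureCounts 1.6.3, and DESeq2 1.20.0 was used for testing. The published methods name HTSeq, a human build and Myc;sgMll3 lines (Mll3 is Kmt2c) for these libraries, whereas the published results name Myc;sgKdm6a lines. The labels were followed, and the coordinates of the 38 Hox genes described equal GENCODE M21. The strand setting is not given in the sources used here, and 15 of them share exonic bases with another gene (9 with one on the opposite strand).

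Counts were tested with edgeR 4.0.16 (R 4.3.3; TMM, filterByExpr with its minimum count of 10, quasi-likelihood, Benjamini-Hochberg adjustment). DESeq2 1.42.0 and other settings were tried as alternatives, and the code was tested on simulated data. Cluster sums in normalized CPM were compared by exact permutation tests (scipy 1.17.1). Pooled counts of Hoxb, Hoxc and Hoxc6 were compared as a ratio of CPM with an exact 95% interval. Intervals and the floor of 3 counts cover counting error only, and duplicate reads are not independent molecules. Levels were compared between genes per kb of the deposited transcript length. Per-line values were to be given for Hox genes with an adjusted p under 0.05, with 50 counts, or with groups that did not overlap and 10 counts; since none met this, those named were chosen after their values were seen. From other lists, up to 5 genes with an adjusted p under 0.05 were named first, and others after their values were seen. One Hox gene of the rule and some genes of other lists are not reported here, nor are sums that include them. The members and lists were chosen with earlier results of these data known.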

Additional observations from a re-analysis of the deposited data

How the results depend on the processing

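No paired analysis was possible because no label pairs a Myc_Utx line with a Myc_p53 line: the names (2A, 2B, 2D and 1, 2, 3) do not match between groups, and the lines come from separate tumours. The number of Hox genes called was 0 in each direction, but Hox genes could be fitted only without a filter and in DESeq2, which gave none an adjusted p, so the other settings say nothing about stability. Hox genes with reads numbered 13, 1 when above 3 counts was asked, and 8 to 13 with 1 line left out. With 1 line left out, the log2 difference ranged from -1.36 to -0.85 for Hoxb and from -1.12 to -0.60 for Hoxc. Hox partners called lower numbered 2, and 1 without a filter, with at least 10 counts in every line, with the transcript length offset and with DESeq2. With the length offset, neighbours called lower numbered 1 and chromatin genes called lower 2. At an unadjusted p under 0.05 in edgeR, chromatin genes numbered 5 higher and 8 lower of 33 tested. Over all genes, 4025 of 11510 tested were under it. With 1 line left out, partners called lower numbered 0 to 1, upstream genes called higher 0 to 2, neighbours 0 to 5 higher and 0 to 3 lower, and chromatin genes 0 to 2 higher and 0 to 5 lower. Hoxc6 could not be fitted under the filter, so its fold change was not recomputed with lines left out. The cause of these changes was not tested. Depth limits every Hox value, since 1 read more or less alters most of them.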
